A study of Mus musculus with 12 samples.

Results

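Transcripts of 7 GABA-A receptor subunit genes (Gabra2, Gabra3, Gabra4, Gabra5, Gabrb1, Gabrb2 and Gabrd) were followed in the adult mouse hippocampus. The genes were chosen by name and their transcripts by the GENCODE M21 annotation, which gives 27 transcripts of the 7 genes among 115270 transcripts of 35580 genes in the series. Hippocampal RNA came from mice at postnatal day 70, labelled C57BL/6 and given as C57BL/6J in the study's methods, with 3 mice in each of 4 groups, and all 12 libraries were used. Control mice had dams that drank water only, and they stayed with the dam and the littermates left in the nest. Per the study's methods, each litter was split at random between separated and unseparated pups. Control and stress mice, and likewise ethanol and ethanol + stress mice, may thus be littermates. Ethanol mice had dams offered 10% ethanol in water to drink by choice throughout gestation, and per the study's methods it stayed on offer until postnatal day 10, which overlaps the days of separation. Stress mice were isolated from dam and littermates for 3 h a day from postnatal day 2 to 14, and ethanol + stress mice had both exposures. No mouse carried an engineered allele, and the tissue was whole dissected hippocampus, so that fewer cells of a type and less RNA per cell cannot be told apart in any value given here.

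GABA-A receptors are chloride channels opened by the inhibitory transmitter GABA, and each is built from several subunits around a pore. Alpha subunits shape the response to GABA and to benzodiazepines, and beta subunits form the GABA binding site together with alpha subunits. The delta subunit takes the place of gamma in some receptors outside synapses. In the hippocampus the alpha 5 subunit is known for receptors outside synapses on pyramidal cells, and alpha 4 with delta for those of dentate granule cells. GABA-A receptors are also a known target of ethanol.

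Depth was similar over libraries. From the step in value worth 1 read pair, 12050000 to 14900000 read pairs were recovered per library, and the 7 genes rested on 295 to 3538 read pairs per gene and mouse, with a counting error of at most 5.83%. All markers of dentate granule cells (7 of 7), CA1 pyramidal cells (6 of 6) and CA3 pyramidal cells (7 of 7) had a mean of at least 1 TPM (the level of a transcript per length, scaled to the library). So did 7 of 8 thalamus markers and 6 of 7 striatum markers, led by Rora at 15.2 TPM and Ppp1r1b at 37.8 TPM. Markers of choroid plexus varied most between mice, with a summed level of 861 to 2347 TPM in control, 155 to 4180 TPM in ethanol, 1999 to 6242 TPM in stress and 358 to 7965 TPM in ethanol + stress mice, and none of its 7 markers was at 0 in every library. Libraries also differed in how level changed with transcript length, with a slope of -0.41 in ethanol mouse 2 to 0.32 in ethanol mouse 3 on the log2 scale per 10-fold length.

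Of the 7 genes, 3 lie near each other on chromosome 5, and DNA before 1 start of each is shown here because the results turn on Gabra2 and on Gabrb1, which has a second start inside Gabra4. Gabra2 spans chr5:70957597-71095849 on the minus strand. Gabra4, at chr5:71569749-71658308 on the same strand, has its near end 473899 bp beyond Gabra2 and its start 562459 bp from the Gabra2 start. Gabrb1 spans chr5:71658113-72149037 on the plus strand, so that it and Gabra4 point away from each other and overlap by 196 bp. The sequences are from RefSeq for GRCm38.p6, written 5′ to 3′ on the strand of the gene with each CG in capitals. The window of Gabra2 is chr5:71095850-71096099 (minus strand), and that of Gabrb1 precedes the downstream start used by Gabrb1-201 (chr5:71699682-71699931, plus strand). For Gabra4 only the upstream 195 bases of its window are printed (chr5:71658364-71658558, minus strand). They stop where the window meets the second exon of Gabrb1-202, so the bases next to the Gabra4 start are left out. On the plus strand of Gabrb1 this stretch lies after that exon.
Gabra2: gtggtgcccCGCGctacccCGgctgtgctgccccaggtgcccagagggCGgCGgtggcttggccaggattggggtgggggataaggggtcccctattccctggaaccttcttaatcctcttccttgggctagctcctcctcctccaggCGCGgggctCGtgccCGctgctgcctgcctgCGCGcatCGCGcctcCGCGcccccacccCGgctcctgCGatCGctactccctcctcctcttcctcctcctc
Gabra4: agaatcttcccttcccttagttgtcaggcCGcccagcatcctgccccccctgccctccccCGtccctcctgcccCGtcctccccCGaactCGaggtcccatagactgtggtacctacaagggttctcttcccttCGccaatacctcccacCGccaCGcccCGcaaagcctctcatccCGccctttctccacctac
Gabrb1: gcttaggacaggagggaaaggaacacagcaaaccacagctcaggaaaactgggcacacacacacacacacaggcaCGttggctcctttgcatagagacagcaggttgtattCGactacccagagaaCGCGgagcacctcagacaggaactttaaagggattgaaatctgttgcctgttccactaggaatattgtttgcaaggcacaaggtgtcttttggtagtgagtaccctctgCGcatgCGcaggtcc

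The Gabra2 window holds 18 CG in 250 bases with a GC content of 70%, and 21.7% of 32851 mouse promoters of that length hold as many or more. The stretch before Gabra4 holds 10 CG in 195 bases. The window before the downstream start of Gabrb1 holds 6 CG, which is the median of all promoters, and 50.4% of promoters hold as many or more. The window before the upstream start of Gabrb1 in RefSeq (chr5:71657671-71657920, plus strand), which lies inside Gabra4 and is not printed, holds 18 CG with a GC content of 64.4%. Both strands read alike for CG, and the count is a description of the letters only. Promoters were listed for 6 of the 7 genes, with Gabrd unmatched.

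Levels differed between subunits far more than between groups. Summed over transcripts and averaged over 12 mice, the order was Gabra5 (141 TPM), Gabrb2 (76.3 TPM), Gabra4 (67.6 TPM), Gabra2 (42.9 TPM), Gabrb1 (40.3 TPM), Gabra3 (34.7 TPM) and Gabrd (27.0 TPM). Gabra5 stood clear of the others, since its lowest mouse (129 TPM) lay above the highest value of any other member (97.8 TPM for Gabrb2). Every other pair of neighbours in this order had ranges that overlapped. Gabra5 made up 32.9% of the summed level of the 7 genes on average, Gabrb2 17.7%, Gabra4 15.9% and Gabrd 6.33%. That sum was 428 ± 26.6 TPM in control, 447 ± 37.5 TPM in ethanol, 423 ± 36.9 TPM in stress and 422 ± 54.3 TPM in ethanol + stress mice (SD, n = 3).

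**Figure D1:**
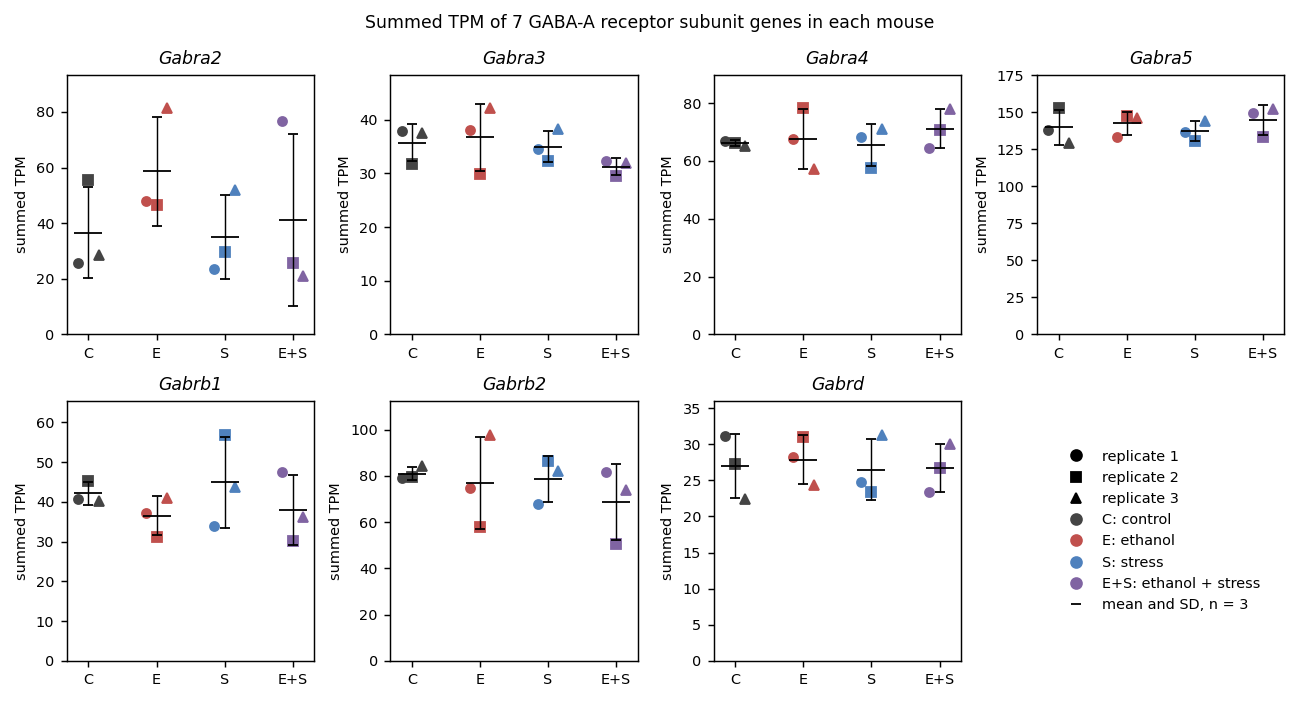
Summed TPM of each subunit gene in each of 12 mice, by group (C control, E ethanol, S stress, E+S ethanol + stress), with the marker shape giving the replicate number and the bars the mean and SD of 3 mice. Each treated group overlaps the control group for every gene, and the mice of a group lie farthest apart for Gabra2.

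To ask whether prenatal ethanol, postnatal separation or both moved the subunits, each treatment was compared with control, and the interaction of ethanol and stress was tested in the same limma model on log2(summed TPM + 0.5). None of the 7 genes passed an unadjusted p of 0.01 in any of the 4 comparisons, and none had a p under 0.05. Over all 18434 genes tested, the share called at that threshold was 0.678% for ethanol (125 genes), 0.51% for stress (94 genes), 0.971% for ethanol + stress (179 genes) and 0.461% for the interaction (85 genes), and 0 of 7 members does not stand apart from such shares. At an unadjusted p under 0.05 the counts over all genes were 670, 442, 990 and 496. The values of each treated group overlapped those of control for all 7 genes, whereas the groups did not overlap for 8.25% of all genes for ethanol, 7.2% for stress and 10.2% for ethanol + stress. The median log2 fold change of the 7 genes was 0.03 for ethanol, -0.03 for stress and -0.01 for ethanol + stress, beside 0.02, 0.00 and 0.02 for all genes. Litters were split between separated and unseparated pups, but the labels do not say which mice shared a litter. The model therefore treats all mice as independent, and p-values measure the spread between these mice.

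**Figure D2:**
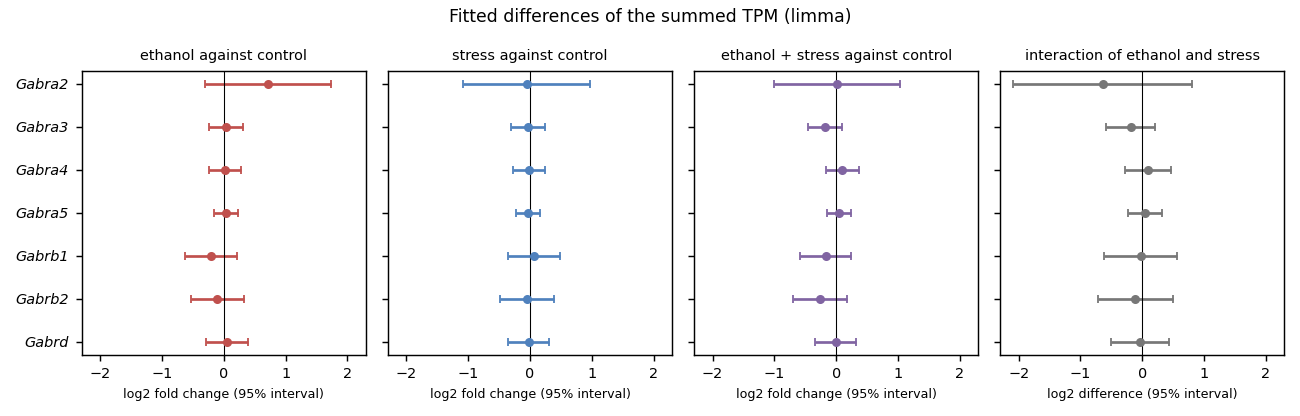
Fitted log2 difference of each subunit gene (points) with its 95% interval (bars) from limma, for each treatment against control and for the interaction. All intervals include 0, and those of Gabra2 are the widest.

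Gabra5, the alpha subunit of receptors outside synapses on pyramidal cells (chr7:57407672-57510059, minus strand), was the most even member. It was at 138, 152 and 129 TPM in control mice, 133, 148 and 146 TPM in ethanol mice, 137, 130 and 144 TPM in stress mice and 149, 133 and 152 TPM in ethanol + stress mice. No group stood apart, and the highest mouse was only 1.18 times the lowest. Its log2 fold change was 0.03 for ethanol (95% interval -0.17 to 0.22), -0.03 for stress (-0.22 to 0.17) and 0.05 for ethanol + stress (-0.14 to 0.25), the narrowest intervals of the 7 genes. Across the 9229 genes at 10 to 1000 TPM, 12.9% had a smaller SD between mice of a group than Gabra5 (0.096 on the log2 scale, against a median gene of 0.17). With each library's trend over transcript length removed, its SD was 0.10 and 21.2% of the genes had a smaller one.

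Gabra4, the alpha subunit that partners delta in dentate granule cells, was at 67.0, 66.3 and 65.1 TPM in control mice, 67.4, 78.2 and 57.1 TPM in ethanol mice, 68.4, 57.4 and 70.9 TPM in stress mice and 64.5, 70.8 and 78.1 TPM in ethanol + stress mice. The 3 control mice were close together, and the treated mice fell on both sides of them. The log2 fold change was 0.02 for ethanol (95% interval -0.24 to 0.28), -0.02 for stress (-0.28 to 0.25) and 0.10 for ethanol + stress (-0.16 to 0.36).

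Gabrd, the delta subunit (chr4:155384980-155398112, minus strand), was the lowest member. It was at 31.2, 27.3 and 22.4 TPM in control mice, 28.3, 31.0 and 24.3 TPM in ethanol mice, 24.8, 23.3 and 31.3 TPM in stress mice and 23.4, 26.7 and 30.0 TPM in ethanol + stress mice. Each group covered nearly the same range. Its log2 fold change was 0.05 for ethanol (95% interval -0.28 to 0.39), -0.02 for stress (-0.36 to 0.31) and -0.01 for ethanol + stress (-0.34 to 0.33).

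Gabra3, an alpha subunit of the X chromosome (chrX:72432681-72656848, minus strand), was at 37.9, 31.8 and 37.5 TPM in control mice, 38.1, 29.8 and 42.1 TPM in ethanol mice, 34.5, 32.3 and 38.2 TPM in stress mice and 32.3, 29.5 and 32.0 TPM in ethanol + stress mice. Of the 3 ethanol + stress mice, 2 lay between the lowest control mouse and the next, and 1 lay below all control mice. Its log2 fold change for ethanol + stress was -0.19 (SE 0.13, limma adjusted p = 0.791, 95% interval -0.46 to 0.09), the smallest p of any member in that comparison. It was 0.03 for ethanol (-0.25 to 0.31) and -0.03 for stress (-0.30 to 0.25).

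The beta subunits varied more. Gabrb2 (chr11:42419757-42629028, plus strand), was at 79.1, 79.5 and 84.1 TPM in control mice, 74.9, 58.0 and 97.8 TPM in ethanol mice, 67.6, 86.3 and 82.0 TPM in stress mice and 81.8, 50.5 and 73.9 TPM in ethanol + stress mice. Ethanol mouse 2 and ethanol + stress mouse 2 were the lowest of all 12 mice. Its log2 fold change was -0.10 for ethanol (95% interval -0.54 to 0.33), -0.05 for stress (-0.48 to 0.38) and -0.26 for ethanol + stress (-0.69 to 0.17, limma adjusted p = 0.791). Without ethanol + stress mouse 2 the last value was -0.06, and without ethanol mouse 2 the value for ethanol was 0.08.

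Gabrb1 was at 40.7, 45.3 and 40.3 TPM in control mice, 37.3, 31.2 and 41.0 TPM in ethanol mice, 34.0, 56.9 and 43.7 TPM in stress mice and 47.4, 30.1 and 36.2 TPM in ethanol + stress mice. The same mice numbered 2 of the ethanol and ethanol + stress groups were again the lowest, and stress mouse 2 was the highest. Its log2 fold change was -0.21 for ethanol (95% interval -0.63 to 0.21, and -0.10 without ethanol mouse 2), 0.06 for stress (-0.36 to 0.48) and -0.17 for ethanol + stress (-0.59 to 0.25), and without ethanol + stress mouse 2 the last value was -0.02.

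Gabra2, an alpha subunit of synaptic receptors, differed most between mice of the same group. It was at 25.7, 55.5 and 28.5 TPM in control mice, 48.1, 46.6 and 81.2 TPM in ethanol mice, 23.4, 29.8 and 52.0 TPM in stress mice and 76.8, 25.8 and 21.1 TPM in ethanol + stress mice. The 12 mice fell into 6 mice from 21.1 to 29.8 TPM, 4 mice from 46.6 to 55.5 TPM and 2 mice at 76.8 and 81.2 TPM, with a gap of 1.56-fold above the lower 6. All 3 ethanol mice lay above this gap, as did 1 of 3 mice in each of the other groups. The classes and the gap were picked from these same values, so these counts are a description and no test. The SD between mice of a group was 0.68 on the log2 scale, and 99.5% of the 9229 genes at 10 to 1000 TPM had a smaller one, with 42 genes above it. After each library's trend over transcript length was taken out it was 0.64.

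The log2 fold change of Gabra2 for ethanol was 0.71 (SE 0.47, limma adjusted p = 0.997), the smallest p of any member there, with a 95% interval of -0.31 to 1.73. Without control mouse 2 it was 1.05 and without ethanol mouse 3 it was 0.45, and neither passed the threshold. For stress it was -0.06 (95% interval -1.08 to 0.97) and for ethanol + stress 0.01 (-1.01 to 1.04), and without ethanol + stress mouse 1 the latter was -0.55. The interaction was -0.64 (SE 0.66, limma adjusted p = 1), with an interval of -2.08 to 0.80. For stress and for ethanol + stress the intervals reached about 2-fold in both directions, so a change of Gabra2 up to about that size is not excluded. These intervals are no detection limit. With 3 mice per group at this spread, a call at an unadjusted p under 0.01 needs a difference of more than 2-fold.

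The spread of Gabra2 was carried by its main protein-coding transcript. Gabra2-203 made 45.5% to 67.2% of the summed level and was at 13.7, 33.4 and 13.9 TPM in control mice, 30.0, 26.1 and 53.6 TPM in ethanol mice, 11.0, 15.2 and 32.5 TPM in stress mice and 51.6, 11.7 and 10.6 TPM in ethanol + stress mice. The order of the mice was close to that of the summed level. The next transcript, Gabra2-204, annotated for nonsense-mediated decay, ranged from 5.70 to 18.2 TPM and was also highest in ethanol mouse 3 and ethanol + stress mouse 1. The retained-intron transcript Gabra2-202, which lay between 1.03 and 3.92 TPM, correlated with Gabra2-203 at r = -0.15 over the 12 mice with group means removed, beside 0.84 for Gabra2-204, 0.77 for Gabra2-206, 0.59 for Gabra2-205 and 0.39 for Gabra2-201.

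Among 14397 other genes with a mean of at least 1 TPM, the 2 whose log2 levels tracked Gabra2 most closely over the 12 mice, with group means removed, were Slc30a9 and Zfp687, both at Pearson r = 0.95. Slc30a9 encodes a zinc transporter and lies on the same chromosome at chr5:67306955-67358443. It was at 128, 210 and 152 TPM in control mice, 220, 208 and 257 TPM in ethanol mice, 156, 141 and 209 TPM in stress mice and 261, 149 and 148 TPM in ethanol + stress mice. The same 6 mice were low, the same 4 in the middle and the same 2 at the top as for Gabra2. With the trend over transcript length removed, r was 0.96. Of the 38 genes within 5 Mb of Gabra2, 1 had an r over 0.9 (Slc30a9 itself), beside 21 of 14359 genes elsewhere, and 13.2% had an r over 0.6, beside 13.4% elsewhere. Gabrg1, the nearest other subunit gene of the cluster, ranged from 16.0 to 32.3 TPM and had r = -0.63, and in the 2 mice with the most Gabra2 it was at 18.0 and 17.4 TPM, with stress mouse 2 (16.0 TPM) the only lower one. The libraries are shared by all genes compared, so these correlations are descriptions.

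**Figure D3:**
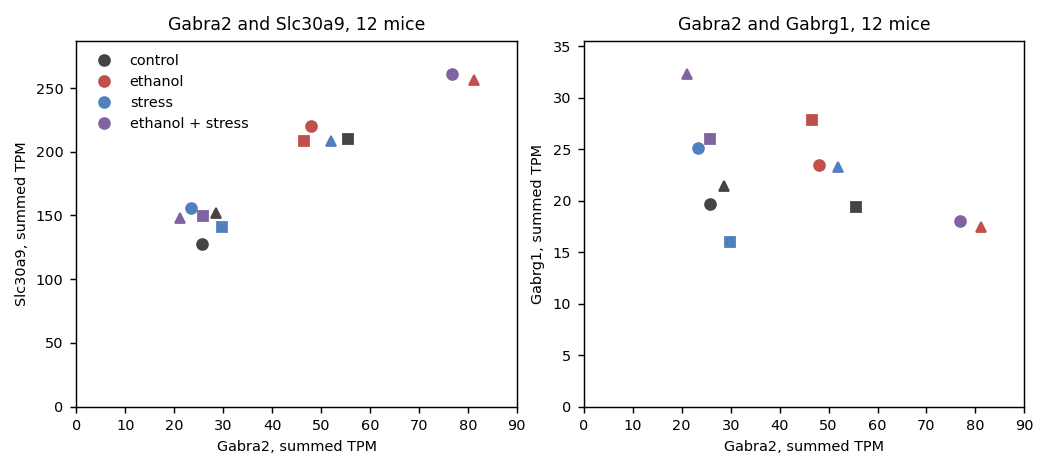
Summed TPM of Gabra2 (x axis) against Slc30a9 and Gabrg1 (y axes) in each of 12 mice, coloured by group with the marker shape giving the replicate number (circle 1, square 2, triangle 3). With Slc30a9 the mice form 6 low, 4 middle and 2 high points, and with Gabrg1 the 2 mice highest in Gabra2 (76.8 and 81.2 TPM) are at 18.0 and 17.4 TPM.

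Some lists of cell type markers moved with Gabra2 as well. The summed level of 5 oligodendrocyte markers ranged from 4150 to 4524 TPM in control, 2638 to 5085 TPM in ethanol, 3503 to 5335 TPM in stress and 3441 to 5908 TPM in ethanol + stress mice, with none at 0 in every library, and its r with Gabra2 was -0.86. For 5 astrocyte markers r was -0.77, and in the opposite direction it was 0.67 for CA1 and 0.60 for CA3 pyramidal cell markers. In the remaining lists r was 0.04 for dentate granule cells, -0.09 for choroid plexus, 0.17 for striatum, -0.26 for thalamus and -0.30 for interneurons. The trend over transcript length was not removed for these values, and Gabra2 had r = 0.67 with its slope. The part of cell makeup in the level of Gabra2 was not tested.

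At transcript level 26 of the 27 transcripts passed the filter of 0.1 TPM in at least 6 libraries, the exception being Gabrb2-202, and 0 were called in any comparison, with 0 at an unadjusted p under 0.05. Of 59852 transcripts tested, 1.26% were called for ethanol, 0.914% for stress, 1.21% for ethanol + stress and 0.854% for the interaction. An unadjusted p under 0.05 was reached by 5.43%, 3.88%, 5.57% and 4.06% of them in the same order. The share of each transcript in its gene was tested on the log2 ratio to the other transcripts of the gene, and again 0 of 26 were called, beside 1.31%, 1.05%, 1.28% and 0.971% of 52732 shares. One share had an unadjusted p under 0.05, that of the processed transcript Gabra2-206 under stress, with a log2 difference of -1.06 (SE 0.45, limma adjusted p = 1). Over all shares 4.71% had such a p under stress. The share of Gabra2-206 rested on at most 17.8 read pairs per mouse, and 2 mice were at or under 3 read pairs.

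Which transcripts carried each gene differed between members. Gabrb2-201, Gabrd-201, Gabra3-201 and Gabra4-201 made up 92.4%, 93.1%, 90.3% and 78.0% of their genes on average. Gabra5 was spread over 3 protein-coding transcripts, of which Gabra5-202 held 56.7% (52.6% to 62.7% over mice), Gabra5-203 24.8% and Gabra5-201 18.5%. Gabrb1 was nearly evenly split by level, with Gabrb1-201 at 21.6 TPM and Gabrb1-202 at 18.8 TPM.

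The Gabrb1 transcripts differ in length and start. Gabrb1-201 has 13737 nt and begins downstream, at 71699932, behind the printed window with 6 CG, while Gabrb1-202 has 799 nt and begins 41819 bp upstream, at 71658113, within the overlap with Gabra4. Their near equal levels per length rested on 1515 to 3254 read pairs per mouse for Gabrb1-201 and 74.8 to 126 for Gabrb1-202. Gabrb1-201 was at 23.8, 24.7 and 24.2 TPM in control mice, 18.7, 14.7 and 25.8 TPM in ethanol mice, 17.9, 28.9 and 22.5 TPM in stress mice and 25.2, 14.0 and 18.4 TPM in ethanol + stress mice. The control mice were close together, and ethanol mouse 2 and ethanol + stress mouse 2 were the lowest of all mice. In those mice Gabrb1-202 was at 16.5 and 16.1 TPM, within its range of 15.2 to 28.0 TPM. Their libraries had the most negative slopes over transcript length (-0.41 and -0.39), and the part of this in the level of the long transcript was not tested. The share of Gabrb1-202 ran from 37.2% to 53.5%. Whether strand was used in assigning reads is not given in the sources used here, so reads of the short overlap may not be separable.

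**Figure D4:**
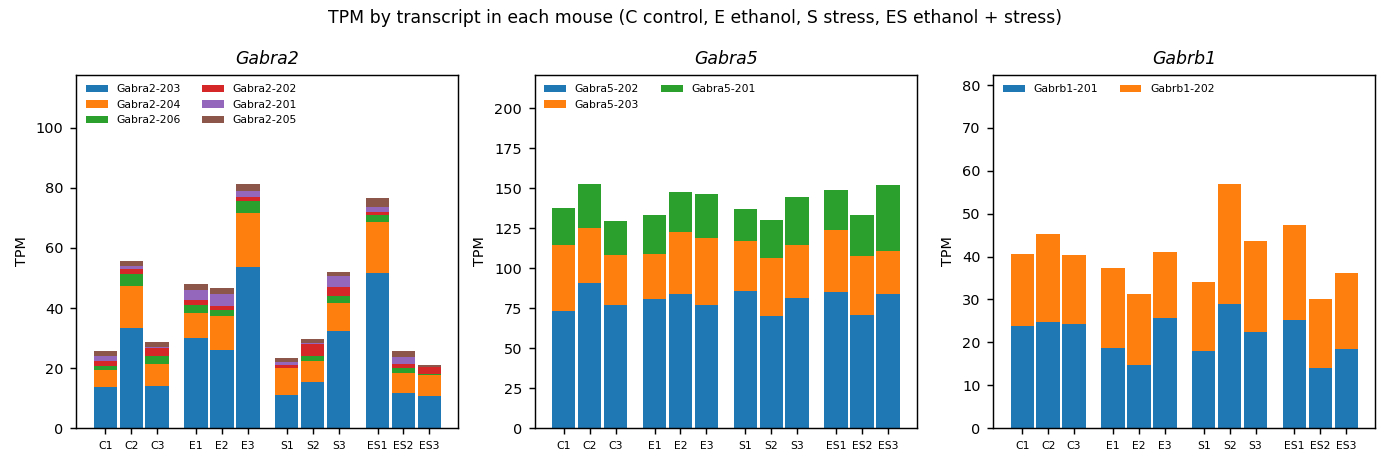
TPM of each transcript of Gabra2, Gabra5 and Gabrb1 (stacked bars from 0) in each mouse (C control, E ethanol, S stress, ES ethanol + stress, with the replicate number). Gabra2-203 sets the height of the Gabra2 bars, Gabra5-202 is the tallest part of every Gabra5 bar, and the Gabrb1 bars are split between both transcripts.

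A few pairs of subunits moved together across mice. With group means removed, Gabrb1 and Gabrb2 correlated at Pearson r = 0.81 over the 12 mice, and Gabra4 and Gabrd, partners in the same receptors, at 0.76. Gabra4 ran opposite to Gabrb1 (r = -0.69), its neighbour across the shared start region, and to Gabrb2 (r = -0.64). Gabra3 with Gabrb2 was at r = 0.66 and Gabra2 with Gabrb1 at 0.62, and these were 0.54 and 0.59 with the trend over transcript length removed. Several members followed the trend over transcript length of the libraries, with r to its slope of 0.89 for Gabrb2, 0.85 for Gabrb1, 0.67 for Gabra2, -0.87 for Gabra4 and -0.66 for Gabrd. With this trend taken out, the first 4 pairs kept their sign, at 0.66, 0.63, -0.63 and -0.65. Cell type markers moved with them too. For astrocyte markers r was 0.82 with Gabra4, -0.77 with Gabrb2 and -0.70 with Gabrb1, for oligodendrocyte markers it was 0.65, -0.79 and -0.68, and for CA3 pyramidal cell markers it was -0.80, 0.58 and 0.78. With Gabrd, r was 0.60 for astrocyte, -0.56 for CA3 and -0.46 for CA1 markers, the same directions as with Gabra4. Dentate granule cell markers had r of 0.07 with Gabra4 and 0.08 with Gabrd. With Gabra3, r was -0.59 for oligodendrocyte, -0.58 for dentate granule cell, -0.56 for astrocyte, 0.58 for CA1 and 0.53 for interneuron markers. It was 0.31 for striatum, 0.21 for CA3, 0.06 for thalamus and -0.00 for choroid plexus markers. The trend over transcript length was not removed for any of the marker values. For CA1 pyramidal cell markers r was -0.80 with Gabra4, 0.88 with Gabrb2 and 0.79 with Gabrb1, with a summed level of 243 to 261 TPM in control, 211 to 298 TPM in ethanol, 230 to 251 TPM in stress and 205 to 276 TPM in ethanol + stress mice. The part of cell makeup in these pairs was not tested. Gabra5 was nearly flat against the length trend (r = 0.06) and ran opposite to the choroid plexus markers (r = -0.78).

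**Figure D5:**
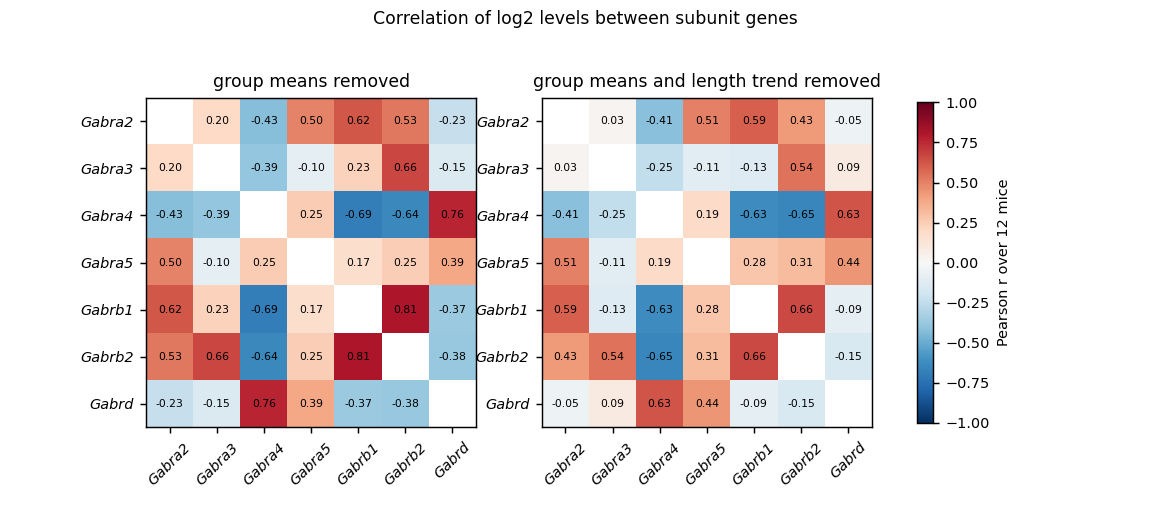
Pearson r between the log2 summed TPM of each pair of subunit genes over 12 mice with group means removed (left) and with the trend over transcript length removed as well (right), on a colour scale from -1 to 1. Gabrb1 with Gabrb2 (0.81 and 0.66) and Gabra4 with Gabrd (0.76 and 0.63) are the strongest positive pairs on both sides, and Gabra4 with Gabrb1 and Gabrb2 are the strongest negative ones.

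The genes most like the other members over the 12 mice were found in the same way. For Gabra3 they were Ccdc136 (r = 0.96) and Kitl, the ligand of the KIT receptor (0.94). For Gabra4 they were Slc25a11, a mitochondrial carrier (0.99), and Nae1, part of the NEDD8 activating enzyme (0.97). For Gabra5 they were Fam131a (0.90) and Sin3b, a transcriptional co-repressor (0.88), the loosest match of any member. For Gabrb1 they were Dgkh, a diacylglycerol kinase, and Herc2, a ubiquitin ligase (both 0.97). For Gabrb2 they were Tenm1, a teneurin, and the kinase gene Mtor (both 0.99), and for Gabrd they were Pcsk1n, which encodes the proSAAS precursor (0.95), and Sephs2, a selenophosphate synthetase (0.94).

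The rest of the GABA system was examined by lists of genes. Of 12 other GABA-A receptor subunit genes, 9 were tested and 0 were called in any of the 4 comparisons. Gabra6, Gabrp and Gabrr3 were below the filter. The median log2 fold change of the 9 genes was 0.00 for ethanol, 0.03 for stress and -0.07 for ethanol + stress.

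Of 20 genes for anchoring, assembly and traffic of these receptors, all were tested and 0 were called. The highest were Gabarapl1 (639 TPM), Nsf, a vesicle fusion factor (470 TPM), and Gabarap, which binds gamma subunits (252 TPM). Of 10 genes for GABA synthesis, transport and breakdown and for chloride transport, 0 were called, with Gad1, a GABA-making enzyme, at 184 TPM and the chloride exporter gene Slc12a5 at 126 TPM. Their median log2 fold change was -0.14 for ethanol, -0.02 for stress and -0.15 for ethanol + stress, beside 0.02, 0.00 and 0.02 for all genes. Of 5 GABA-B receptor genes, 0 were called, with Gabbr1 at 368 TPM and a median log2 fold change of -0.19 for ethanol, -0.06 for stress and -0.21 for ethanol + stress. Gabbr2, a subunit of that receptor, was lowest in ethanol mouse 2 (37.7 TPM) and ethanol + stress mouse 2 (38.3 TPM), whose libraries had slopes over transcript length of -0.41 and -0.39, and highest in ethanol mouse 3 (90.1 TPM), whose slope was 0.32. The part of these slopes in the medians was not tested. Over the 4 lists, 2 of 44 genes tested had an unadjusted p under 0.05 for ethanol + stress and 0 for the other comparisons, beside 5.37% of all genes for ethanol + stress. The 2 genes were Iqsec3 and Slc32a1, named after their values were seen.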

How the data were processed

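Hippocampal RNA of 12 mice was sequenced as paired-end reads from stranded libraries depleted of rRNA. The authors assigned reads to Ensembl mouse transcripts with kallisto (the submitters' notes name CASAVA, kallisto and sleuth, with the mm10 build), and the deposited signal per transcript is TPM that the authors scaled between libraries, with sums of 889222 to 1173650. Versions of these tools are not given in the sources used here. Kallisto divides read pairs that fit several transcripts of a gene by an estimate, so isoform values are less sure than gene sums. Of 115270 transcripts, 113580 matched GENCODE M21 by identifier.

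A step worth 1 read pair was found in the low values of each library (80.2% to 83.1% of low values whole within 0.1 read pairs), which gave the depth and a floor of 3 read pairs. The floor covers counting error only, while the intervals of fold changes come from the spread between mice.

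Features that reached 0.1 TPM in 6 or more libraries (18434 gene sums, 59852 transcripts) were fitted by limma 3.58.1 (R 4.3.3) on the log2 scale after adding 0.5 to each value, with eBayes and its trend, over all 4 groups in 1 model without a replicate block. Fold changes are on this scale, which understates those of low genes. Tests were two-sided, a call was an unadjusted p under 0.01 as in the study, and adjustment was by the method of Benjamini and Hochberg across every feature of the level. Isoform shares were fitted as the log2 ratio of a transcript to the rest of its gene, each with 0.5 added. Correlations used log2 gene sums with group means removed.

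Named genes were the 7 members, the highest and any called transcripts of each, the 2 most correlated genes per member and up to 3 of the highest genes per list (some are not reported here), while Gabrg1 and some single transcripts were chosen after their values were seen. The members and lists were chosen with earlier results of these data known. Alternatives were other pseudocounts (0.1 and 1), filters, scalings, no trend, only the groups compared, a replicate block, removal of the trend over transcript length, protein-coding transcripts only and leaving out each mouse. The trend removal for spread and correlations, and the block and left-out mice for isoform shares, were added after seeing the data. Python 3.11.15 with pandas 2.3.3 joined the tables, and matplotlib 3.10.9 drew the plots.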

Additional observations from a re-analysis of the deposited data

How the results depend on the processing

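The count of called members was 0 for the 7 genes and 0 for their transcripts in every comparison under every setting run. The number of member transcripts tested was 26 in the main fit and changed with the filter of the setting. The number of all genes called ran from 69 to 215 for ethanol, 42 to 138 for stress, 114 to 763 for ethanol + stress and 48 to 155 for the interaction. For isoform shares under ethanol the count ran from 0 to 1 when each mouse was left out, the 1 being Gabrb2-203 without ethanol mouse 1 (log2 difference 1.96, limma adjusted p = 0.783), a transcript at or under 3 read pairs in 10 of 12 mice, while 575 to 743 of all 52732 shares were called for ethanol over the settings run. The smallest p of a member gene under any setting was 0.0388, for the interaction of Gabra2 without ethanol + stress mouse 1 (-1.21). Same-numbered mice correlated at -0.17 to 0.16 over 18 pairs, with 1 pair over 0.1 (ethanol mouse 2 with ethanol + stress mouse 2). Mice of different number were not compared, so these values cannot tell whether replicate numbers pair the mice. Gabra3 was lowest in mouse 2 of every group (31.8, 29.8, 32.3 and 29.5 TPM in control, ethanol, stress and ethanol + stress). The labels do not say what a number marks, and with the replicate block 0 members were called at any level (smallest p of a gene 0.0761, for Gabra3 under ethanol + stress).

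Of 539 values of single genes under alternatives, 487 kept their sign and 52 changed it, none of them with a p under 0.178. Rescaling to a common total shifted the median of all genes by -0.07 for ethanol and -0.12 for ethanol + stress, took the share of called genes that were higher from 76% to 59.6% for ethanol and from 71.5% to 45.8% for ethanol + stress, and gave log2 fold changes of -0.051 for Gabra3, -0.062 for Gabra4, -0.053 for Gabra5 and -0.027 for Gabrd under ethanol and of -0.12 for Gabra2, -0.034 for Gabra4 and -0.084 for Gabra5 under ethanol + stress. With the trend over transcript length removed, the higher share was 52.8% for ethanol, 44.3% for stress and 51.1% for ethanol + stress. Protein-coding transcripts alone gave -0.031 for Gabra3 and -0.017 for Gabrd under ethanol and 0.034 for Gabrd in the interaction, and moved Gabrb2 to -0.18 under ethanol and -0.38 under ethanol + stress, and median-of-ratios size factors gave -0.0055 for Gabra2 under ethanol + stress. The cause of these changes was not tested.

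Leaving out 1 mouse at a time left 2 mice in its group and changed the sign of some values close to 0. For ethanol the range was 0.45 to 1.05 for Gabra2 and -0.30 to -0.10 for Gabrb1, which kept their sign, -0.076 to 0.17 for Gabra3, -0.090 to 0.13 for Gabra4, -0.026 to 0.092 for Gabra5, -0.29 to 0.082 for Gabrb2 and -0.072 to 0.16 for Gabrd. For stress the range was -0.38 to 0.29 for Gabra2, -0.11 to 0.028 for Gabra3, -0.077 to 0.074 for Gabra4, -0.081 to 0.038 for Gabra5, -0.12 to 0.24 for Gabrb1, -0.12 to 0.057 for Gabrb2 and -0.15 to 0.086 for Gabrd. For ethanol + stress the range was -0.27 to -0.14 for Gabra3, 0.031 to 0.17 for Gabra4, -0.34 to -0.021 for Gabrb1 and -0.40 to -0.057 for Gabrb2, which kept their sign, -0.55 to 0.37 for Gabra2, -0.0038 to 0.11 for Gabra5 and -0.13 to 0.10 for Gabrd. For the interaction the range was -1.21 to -0.29 for Gabra2 and -0.33 to -0.084 for Gabra3, which kept their sign, -0.016 to 0.21 for Gabra4, -0.016 to 0.11 for Gabra5, -0.21 to 0.16 for Gabrb1, -0.30 to 0.10 for Gabrb2 and -0.15 to 0.086 for Gabrd.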

Other observations

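Single mice stood apart in minor transcripts of the subunits, none of which was called. The processed transcript Gabrb2-202, which was below the filter for transcripts but is part of the gene sum, was at 14.1 TPM in ethanol + stress mouse 3, at most 3.33 TPM in the other mice and 0 in 6 of the 12. Gabra3-203, also a processed transcript, was at 3.98 TPM in ethanol mouse 1 and 4.15 TPM in ethanol + stress mouse 1, and at most 1.84 TPM in the others. Gabra4-202, annotated for nonsense-mediated decay, ran from 0 in ethanol mouse 3 and stress mouse 3 to 10.6 TPM in stress mouse 1, so that it made up 0% to 15.5% of Gabra4 while the summed level of the gene varied by 1.37-fold over all mice.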
